A study of Mus musculus with 8 samples.

Results

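Menin-null pancreatic islet-like endocrine cells (PILECs), differentiated in vitro, were compared with the menin-null mouse embryonic stem cells (mESCs) they were made from, by the level of trimethylated lysine 4 of histone H3 (H3K4me3) at promoters genome-wide. The comparison comprised 4 of the 8 sequenced samples, chosen by their labels. These were 1 H3K4me3 ChIP library and 1 control input library from each of the menin-null cell types. The corresponding 4 wild-type (wt) samples are used below only to show where the menin-null change differed.

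H3K4me3 is laid down around the transcription start sites (TSSs) of active genes and of genes held ready for use, by methyltransferase complexes of the MLL and SET1 families. Menin, the product of the tumor suppressor gene Men1, is a subunit of the MLL1 and MLL2 complexes, and is best known for their activity at the Hox genes and for endocrine tumors, including those of the pancreatic islet. On differentiation from mESCs, promoters of pluripotency genes characteristically lose H3K4me3, while promoters of the new lineage keep or gain it.

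Both genotypes were of the 129S6/SvEvTac strain. The menin-null mESCs were the 3.2N line, labelled Men1-ko, and the wt mESCs were the TC-1 line. The mESCs were grown on irradiated feeder fibroblasts with LIF and then moved to feeder-free culture, and PILECs were obtained from them through embryoid bodies with a commercial differentiation protocol. Since each genotype was 1 cell line and each cell type 1 H3K4me3 library, genotype and line cannot be told apart, no p-value can be given, and the 95% intervals printed here cover the counting error of the tags only. The label menin-null was checked at Men1 itself (chromosome 19), where exons 3 to 8 of 10 (chr19:6336725-6338961, mm9) held 0 tags in all 4 menin-null libraries. Over the same exons the wt inputs held 17 tags in mESCs and 22 in PILECs and the wt PILEC H3K4me3 library 24, but the wt mESC H3K4me3 library also held 0, so that the 0 of its menin-null counterpart does not bear on the label. In the 5 kb on each side, the menin-null inputs held 42 and 87 tags. The Men1 TSS, which lies outside those exons, kept H3K4me3, with 39.2 RPM (tags per 1000000 tags of the library) in mESCs and 44.1 RPM in PILECs.

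The libraries differed in depth. The menin-null H3K4me3 libraries held 3517028 tags in mESCs and 17682677 in PILECs, and their inputs 3744616 and 18120807. Levels are therefore given as tags within 1 kb of a TSS per 1000000 tags of the library (RPM). A promoter without a tag could lie anywhere up to 0.853 RPM in mESCs and 0.170 RPM in PILECs, the limits that 0 tags allow. Of the tags, 51.4% in mESCs and 40.1% in PILECs lay within 1 kb of a TSS, a share of 3.23% of the genome, against 6.97% and 4.78% in the inputs. A promoter was tested where it reached 3 RPM in at least 1 of the menin-null H3K4me3 libraries, and was called higher or lower where the whole 95% interval of the PILEC over mESC ratio lay beyond 2-fold.

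The sequences of 6 promoters around which the results turned are shown first, as the 250 bases before the TSS in mm9, with CpG dinucleotides in capitals. CpG content is the sequence feature most closely tied to H3K4me3. Pou5f1 and Fgf4 lost the mark, Celf3 gained it, Meg3 and Mest gained it from a near-unmarked state in menin-null mESCs, and Hoxd3 differed from wt cells. The sequences hold 7, 21, 6, 8, 14 and 12 CpGs, respectively, and as many as these or more were found in 89.4%, 41.1%, 92.1%, 86.7%, 66.8% and 74.3% of all tested promoters.
Pou5f1, chr17:35642732-35642981, plus strand: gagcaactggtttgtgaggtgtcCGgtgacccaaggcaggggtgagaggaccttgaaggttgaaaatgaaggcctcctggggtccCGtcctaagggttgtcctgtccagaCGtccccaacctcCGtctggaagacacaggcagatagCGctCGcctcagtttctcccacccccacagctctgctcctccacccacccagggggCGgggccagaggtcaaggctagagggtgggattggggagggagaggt
Fgf4, chr7:152047041-152047290, plus strand: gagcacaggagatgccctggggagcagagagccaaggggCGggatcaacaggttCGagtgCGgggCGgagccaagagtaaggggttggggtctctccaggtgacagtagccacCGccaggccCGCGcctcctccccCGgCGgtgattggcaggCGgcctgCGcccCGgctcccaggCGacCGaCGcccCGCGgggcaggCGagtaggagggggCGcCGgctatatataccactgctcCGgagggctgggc
Celf3, chr3:94282503-94282752, plus strand: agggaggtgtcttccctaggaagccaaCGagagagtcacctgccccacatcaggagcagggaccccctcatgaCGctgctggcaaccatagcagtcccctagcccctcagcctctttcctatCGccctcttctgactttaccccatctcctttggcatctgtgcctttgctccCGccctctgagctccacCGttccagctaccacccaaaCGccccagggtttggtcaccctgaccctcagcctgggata
Meg3, chr12:110779983-110780232, plus strand: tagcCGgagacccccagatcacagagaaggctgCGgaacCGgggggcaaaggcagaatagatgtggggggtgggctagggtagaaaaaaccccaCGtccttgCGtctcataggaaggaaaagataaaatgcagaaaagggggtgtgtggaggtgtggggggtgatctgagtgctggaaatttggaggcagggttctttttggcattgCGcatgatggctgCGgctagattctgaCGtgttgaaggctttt
Mest, chr6:30687800-30688049, plus strand: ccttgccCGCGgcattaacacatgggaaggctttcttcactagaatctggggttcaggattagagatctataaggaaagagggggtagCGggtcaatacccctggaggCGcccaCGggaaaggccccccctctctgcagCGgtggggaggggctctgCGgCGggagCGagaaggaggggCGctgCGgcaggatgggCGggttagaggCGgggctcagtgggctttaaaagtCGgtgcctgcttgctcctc
Hoxd3, chr2:74549736-74549985, plus strand: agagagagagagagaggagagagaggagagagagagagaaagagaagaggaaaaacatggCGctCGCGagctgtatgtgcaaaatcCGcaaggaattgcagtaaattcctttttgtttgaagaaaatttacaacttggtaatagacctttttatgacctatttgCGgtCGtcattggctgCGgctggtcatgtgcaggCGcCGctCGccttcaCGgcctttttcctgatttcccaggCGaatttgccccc

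Most promoters carried H3K4me3 in both menin-null cell types, and losses outnumbered gains on differentiation. Of 26048 genes with 1 TSS each, 15184 promoters reached 3 RPM in mESCs and 13928 in PILECs, with 13644 in both, 1540 in mESCs only and 284 in PILECs only. When a promoter also had to reach 3 times its input level, 1005 were marked in mESCs only and 543 in PILECs only. Among 15468 tested promoters, 324 (2.09%) were called higher in PILECs and 2397 (15.5%) were called lower, in 299 and 2211 windows that did not overlap. The promoters called higher had a median of 4.55 RPM in mESCs and 22.6 RPM in PILECs, and 115 of them were under 3 RPM in mESCs. The promoters called lower went from a median of 21.9 to 3.62 RPM, and 1132 of them were under 3 RPM in PILECs. Promoters marked in 1 library only passed the filter through that library alone. Of the 1540 marked in mESCs only 1132 were called lower, and of the 284 in PILECs only 115 were called higher. For lists with few tags in 1 library these counts are the closer comparison. Within 2-fold of equal lay 11001 promoters (71.1%). In such bulk chromatin, fewer cells carrying the mark and less of the mark per cell cannot be told apart.

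The excess of losses depended on how the unequal libraries were scaled. The median log2 ratio of all tested promoters was -0.35, beside which the ratios below should be read, and a smaller share of the PILEC tags lay near TSSs. With levels scaled by the tags within 1 kb of any TSS, 639 promoters were called higher and 1539 lower, so that gains made up 29.3% of calls in place of 11.9%. With the log2 ratios centred on promoters marked in both libraries, 538 were called higher and 1712 lower (23.9% gains). Division by the ratio of the inputs within 5 kb, taken as fixed and so without the counting error of the input tags, gave 952 and 1126 (45.8% gains). Losses outnumbered gains under each of these. Thinning the deeper library to the tags of the shallower one gave 302 and 1774 (14.6% gains).

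**Figure D1:**
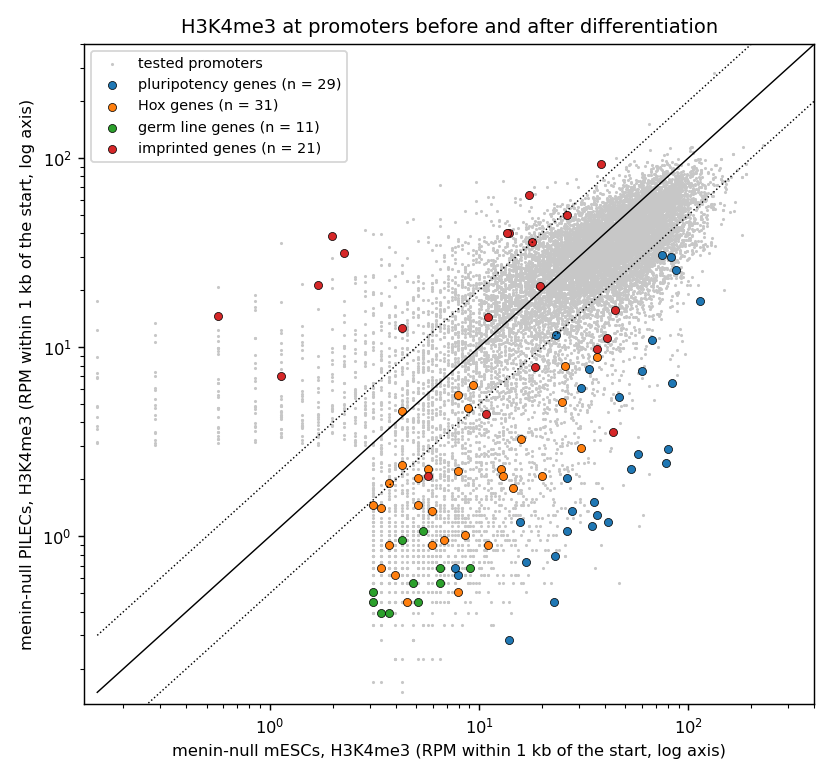
H3K4me3 within 1 kb of the TSS of each tested promoter in menin-null mESCs (x axis, RPM, log scale) and menin-null PILECs (y axis, RPM, log scale), with promoters without a tag in mESCs drawn near the left edge. The solid line marks equal levels and the dotted lines 2-fold. The 29 pluripotency promoters lie below the solid line, as do the germ line promoters, whereas imprinted genes lie on both sides.

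Around the TSS, the mark kept its position on differentiation. Over all tested promoters the mean profile was highest in the 100 bp centred 150 bp after the TSS in both cell types, at 4.45 RPM per 100 bp in mESCs and 2.99 in PILECs. At promoters called higher this maximum was 0.553 in mESCs and 2.27 in PILECs, and at promoters called lower 3.77 and 0.814. The input stayed at or below 0.2504 RPM per 100 bp in mESCs and 0.133 in PILECs over all tested promoters. In PILECs the tags from 1 to 5 kb came to 0.811 times those within 1 kb at promoters called higher, 0.649 times at those called lower and 0.297 times over all tested promoters, and in mESCs to 1.29, 0.326 and 0.245 times.

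**Figure D2:**
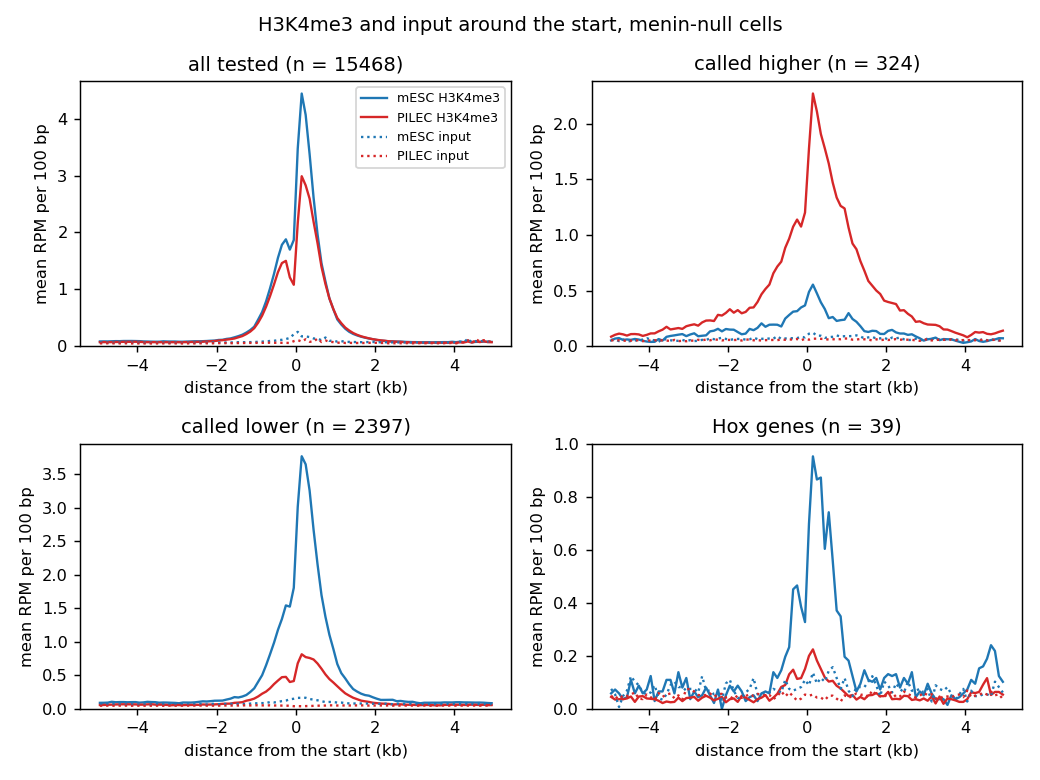
Mean level (RPM per 100 bp, y axis) against the distance from the TSS (kb, x axis) for 15468 tested promoters, 324 called higher, 2397 called lower and 39 Hox genes, in the menin-null H3K4me3 and input libraries. The maximum lies 150 bp after the TSS in both H3K4me3 libraries in each panel.

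The largest losses included pluripotency genes. Of 29 tested promoters of pluripotency and mESC genes, 28 were called lower (96.6%, beside 15.5% of all tested promoters) and 0 higher, with a median log2 ratio of -3.72. Over the 30 genes of the list the median level in PILECs was 2.15 RPM. For members under 3 RPM in PILECs the closer comparison is the 1132 called lower of all 1540 such promoters. Pou5f1, which encodes the core pluripotency factor Oct4 (chr17, TSS 35642982), went from 78.5 RPM in mESCs to 2.43 RPM in PILECs, a 32.3-fold loss (log2 ratio -5.01, 95% interval -5.51 to -4.54). Fgf4, which encodes a growth factor secreted by mESCs (chr7, TSS 152047291), went from 79.6 to 2.88 RPM, a 27.6-fold loss (log2 ratio -4.79, -5.25 to -4.35). Both were among the most strongly marked promoters of the list in mESCs and fell below 3 RPM in PILECs. In the inputs within 5 kb the log2 ratio was -0.69 at Pou5f1 and -1.05 at Fgf4.

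Other members followed the same course. Gdf3 and Tdgf1, which encode a ligand and a co-receptor of the TGF-β family, went from 41.5 to 1.19 RPM and from 34.7 to 1.13 RPM. Tcl1, an activator of Akt signaling, went from 22.7 to 0.452 RPM and Dppa2, a chromatin factor of early embryonic cells, from 13.9 to 0.283 RPM. Nanog, named after its values were seen, went from 35.5 to 1.53 RPM. The exception was Tbx3 at 23.3 and 11.7 RPM, whose log2 ratio had an interval of -1.38 to -0.61. The smallest change called on the list was that of Klf5, which encodes a Krüppel-like factor, from 74.8 to 30.7 RPM. The count of members called lower was 26 with scaling by tags near TSSs and 25 with division by the input ratio, so the direction did not turn.

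Germ line genes, which mESCs mark at a low level, were also lower. All 11 tested promoters of the 12 placed genes on that list were called lower, where 15.5% of all were, with a median log2 ratio of -3.11 (7 called with scaling by tags near TSSs and 9 with division by the input ratio). Over the 12 genes the median level was 4.55 RPM in mESCs and 0.566 RPM in PILECs. Of all 1540 tested promoters under 3 RPM in PILECs 1132 were called lower, a closer comparison than the 15.5%. Ddx4, the RNA helicase of germ cells, went from 9.10 to 0.679 RPM and Sycp3, a protein of the meiotic chromosome axis, from 6.54 to 0.566 RPM. Dazl, an RNA-binding protein of germ cells, had the smallest loss, from 4.27 to 0.961 RPM, and was not called under 7 of the alternatives. Outside these lists, Rbmxl2, which encodes a testis RNA-binding protein, went from 60.6 to 1.301 RPM (46.6-fold). Trim2, a ubiquitin ligase gene, went from 35.8 to 0.679 RPM, Klhl35 from 23.0 to 0.452 RPM, Triml2 from 38.1 to 0.905 RPM, Tcfl5 from 64.5 to 2.15 RPM and Pnldc1, which encodes a piRNA-trimming enzyme, from 20.5 to 0.566 RPM. For Trim2 and Klhl35 the loss was at the TSS with the highest summed RPM, and not at the annotated 5′ end of the gene.

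The largest gains began from few tags in mESCs. Celf3, a neuronal splicing regulator (chr3, TSS 94282753), went from 1.99 RPM in mESCs to 29.5 RPM in PILECs (log2 ratio 3.89, 2.83 to 5.21). Dcx, the microtubule-associated protein of migrating neurons, went from 0.284 to 11.5 RPM, and Stmn4, a tubulin-binding protein of the stathmin family, from 0.569 to 20.9 RPM. Myt1, a zinc finger factor of neural and endocrine progenitors, went from 0.853 to 18.8 RPM. These promoters had from 1 to 7 tags in mESCs, so their folds were imprecise, and the lower bounds of their log2 ratios were 2.83, 2.85, 3.34 and 2.90.

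Some promoters had no tag at all in mESCs. Lrrn3, a leucine-rich repeat membrane protein of neurons, had 0 tags in mESCs and 310 tags (17.5 RPM) in PILECs, at least 20.5-fold higher when set against 3 tags. Mapk10, the neuronal JNK kinase, reached 12.4 RPM (14.5-fold against 3 tags) and Akap6, an anchoring protein of kinase A, 8.82 RPM (10.3-fold against 3 tags). Their intervals began at 3.55 and 3.06. Pcdh9, a protocadherin, went from 0.284 to 13.4 RPM, Caly, a regulator of vesicle trafficking in neurons, from 0.853 to 17.6 RPM and Ypel4 from 2.27 to 31.0 RPM. Lphn3, an adhesion receptor of synapses, was already marked in mESCs at 6.54 RPM and reached 71.8 RPM in PILECs.

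On the neural list, 3 of 29 tested promoters were called higher (10.3%, beside 2.09% of all tested promoters), 3 lower (10.3%, beside 15.5%) and 23 neither, with a median log2 ratio of 0.08, beside -0.35 for all. Fabp7, a fatty acid binding protein of neural progenitors, was called higher from 1.14 to 7.64 RPM, as was Snap25, a synaptic fusion protein named after its values were seen, from 7.39 to 30.7 RPM. Sox10 and Rbfox3, which encode regulators of neural crest and of mature neurons, were called lower, from 8.53 to 1.13 RPM and from 44.6 to 13.1 RPM. The counts were 7 higher and 2 lower with scaling by tags near TSSs and 9 and 0 with division by the input ratio.

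**Figure D3:**
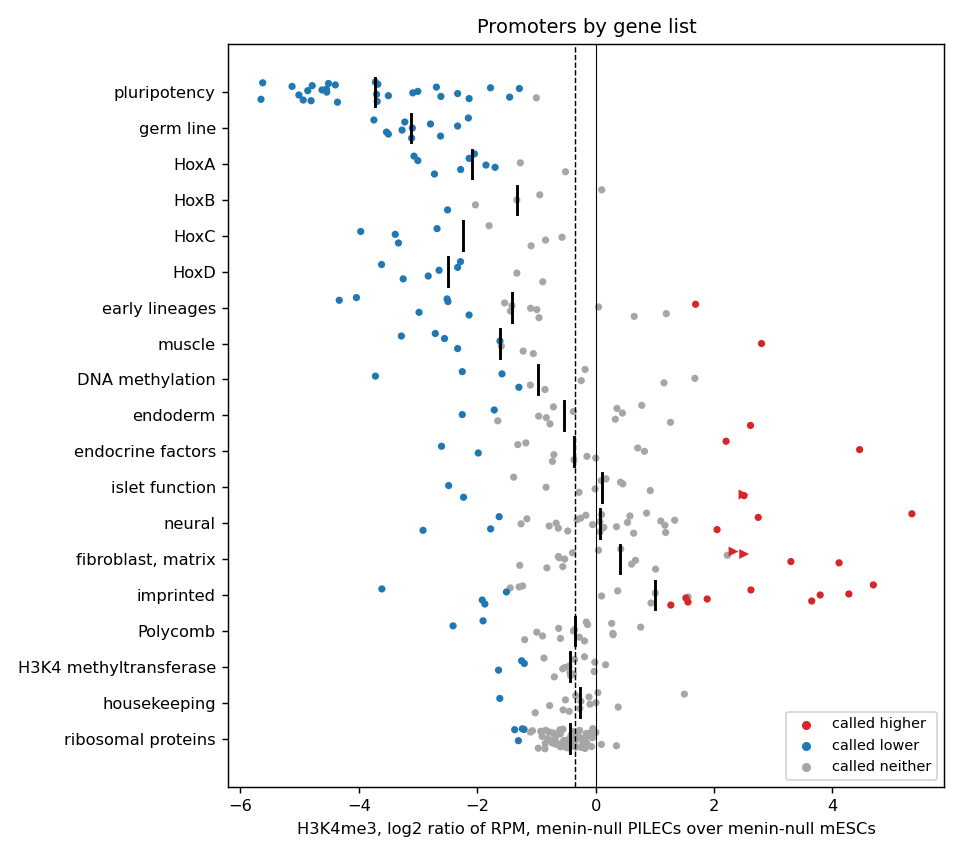
Log2 ratio of H3K4me3 (menin-null PILECs over menin-null mESCs, x axis) at each tested promoter of the gene lists (rows), colored by call. Triangles are lower bounds for promoters without a tag in mESCs, short bars mark the median of each list and the dashed line the median of all tested promoters (-0.35). Pluripotency, germ line and, but for Hoxb13, Hox promoters lie to the left of 0, whereas imprinted genes lie on both sides, from -3.61 to 4.69.

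Promoters of pancreatic and islet regulators were called in both directions. Of 14 tested endoderm and pancreatic progenitor regulators 1 was called higher (7.14%) and 2 lower (14.3%), and of 13 tested endocrine transcription factors 2 were called higher (15.4%) and 2 lower (15.4%), beside 2.09% and 15.5% of all tested promoters. Sox9, a factor of pancreatic and other progenitors, went from 8.53 to 52.3 RPM (log2 ratio 2.62, 2.09 to 3.19). Neurog3, which specifies endocrine progenitors, was called lower from 12.5 to 3.17 RPM, and Mafa, an activator of the insulin genes, from 34.7 to 5.71 RPM. Neurod1, an endocrine and neuronal factor, stood at 3.13 and 5.54 RPM and was not called (log2 ratio 0.83, -0.08 to 1.87). With division by the input ratio none of either list was called lower, Neurog3 and Mafa included.

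The hormone promoters were checked as defining markers of the labelled PILECs. None reached 3 RPM in PILECs. Ins1 stood at 0.509 RPM in PILECs, Ins2 at 1.24, Gcg at 0.452 and Iapp at 0.339, beside 0.853, 0.284, 0.284 and 0 RPM in mESCs, and none of the 4 was tested. Sst, the somatostatin gene, went from 3.98 to 0.848 RPM and was called lower, a call lost under 6 of the alternatives. On the whole list of 23 islet hormone, secretion and glucose sensing genes 13 were tested, of which 2 were called higher (15.4%, beside 2.09% of all tested promoters), 2 lower (15.4%, beside 15.5%) and 9 neither. The granule protein genes Scg3 and Scg2 were those called higher. Scg3 went from 3.41 to 19.4 RPM and Scg2 from 0 tags to 4.81 RPM (5.64-fold against 3 tags), whereas Glp1r, the receptor for the incretin GLP-1, was called lower from 25.6 to 4.58 RPM. H3K4me3 reports the mark at the promoter in the population and not transcript or hormone.

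Lists of other cell types were also counted, beside 2.09% higher and 15.5% lower over all tested promoters. For members under 3 RPM in PILECs the closer comparison is 1132 called lower of 1540 such promoters. For members under 3 RPM in mESCs it is 115 called higher of 284. Of 17 tested fibroblast and matrix promoters 4 were called higher (23.5%) and 0 lower. The median log2 ratio was 0.42, above the -0.35 of all tested promoters, but with division by the input ratio it was 0.01, below the 0.14 of all. Col6a1 and Col3a1, collagen genes with 0 tags in mESCs, reached 4.86 RPM (5.70-fold against 3 tags) and 4.30 RPM (5.04-fold against 3 tags). Prrx1 and Pdgfrb, named after their values were seen, went from 0.569 to 9.84 RPM and from 0.569 to 5.60 RPM. Of 9 tested muscle promoters 1 was called higher (11.1%) and 5 lower (55.6%). Mef2c, a factor of muscle and neurons, was the 1 called higher, from 2.84 to 19.9 RPM, and Des, the muscle intermediate filament, went from 8.25 to 0.848 RPM, while with division by the input ratio 2 of the list were called lower. Col3a1 was then not called. Of 7 tested blood and endothelial promoters Cd34 alone was called (14.3%), lower from 7.39 to 0.905 RPM, and of 2 tested liver promoters none was called. Whether cells other than endocrine cells took part in these gains was not tested.

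Of 16 tested epiblast, primitive streak and early mesoderm promoters 6 were called lower (37.5%, beside 15.5% of all) and 1 higher (6.25%, beside 2.09%), with a median log2 ratio of -1.42. Cdx1 and Cdx4, caudal homeobox factors that act upstream of Hox genes, went from 10.2 to 0.622 RPM and from 3.41 to 0.170 RPM. For members under 3 RPM in PILECs, such as these, the closer comparison is 1132 called lower of 1540 such promoters. Fgf5, a marker of the epiblast, was the member called higher, from 6.82 to 22.0 RPM, and Otx2, a factor of the epiblast and forebrain, stood at 5.69 and 13.01 RPM and was not called.

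Imprinted genes, which are expressed from 1 parental allele, were called in both directions. Of 21 tested promoters 9 were called higher (42.9%, beside 2.09% of all tested promoters) and 4 lower (19.05%, close to the 15.5% of all), with a median log2 ratio of 1.01 (1.37 with scaling by tags near TSSs and 1.38 with division by the input ratio). Meg3, the maternally expressed non-coding RNA of the Dlk1-Dio3 locus (chr12, TSS 110780233), went from 1.99 RPM in mESCs to 38.6 RPM in PILECs, a 19.4-fold gain (log2 ratio 4.28, 3.23 to 5.60). Mest, a paternally expressed hydrolase gene (chr6, TSS 30688050), went from 2.27 to 31.6 RPM (log2 ratio 3.79, 2.81 to 5.01), although at the annotated 5′ end of the gene, another promoter, the ratio was -0.33. Plagl1, a zinc finger factor, went from 1.71 to 21.4 RPM and Airn, the antisense RNA of the Igf2r locus, from 0.569 to 14.7 RPM. H19, a maternally expressed RNA, went from 1.14 to 7.01 RPM. These 5 promoters were under 3 RPM in menin-null mESCs and above it in PILECs. Among all 284 tested promoters of that kind 115 were called higher, for them a closer comparison than the 2.09%.

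The other imprinted promoters called higher were already marked in mESCs. Peg3 went from 17.3 to 64.1 RPM, Peg10 from 13.9 to 40.1 RPM, Sgce, which shares its promoter window with Peg10, from 13.7 to 40.3 RPM and Zrsr1 from 38.4 to 92.6 RPM, all named after their values were seen. Grb10, an adaptor of insulin signaling, went from 43.5 to 3.56 RPM and Phlda2 from 36.7 to 9.73 RPM. Igf2r and Zdbf2, also named after their values were seen, were called lower as well, from 44.6 to 15.7 RPM and from 40.9 to 11.2 RPM. Within the Dlk1-Dio3 locus the gain was called at Meg3 alone. Dlk1 stood at 5.69 and 2.09 RPM and Dio3 at 10.8 and 4.41 RPM, both not called, and Rtl1, Rian and Mirg did not reach 3 RPM in either library. In the inputs within 50 kb of Meg3 the log2 ratio was 0.64 (0.35 to 0.94).

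Hox promoters, the classical targets of menin-containing complexes, were lower in PILECs. Of 39 Hox genes 31 were tested, of which 19 were called lower (61.3%, beside 15.5% of all tested promoters), 0 higher and 12 neither, with a median log2 ratio of -2.14. Most of the 31 were under 3 RPM in PILECs and so were tested through mESCs alone. Of all 1540 promoters tested in this way 1132 were called lower, a closer comparison than the 15.5% and a higher share than that of the Hox promoters. The count of Hox promoters called lower was 15 with scaling by tags near TSSs and 13 with division by the input ratio, with medians of -1.78 and -1.55. By cluster, 8 of 10 tested HoxA promoters, 1 of 5 HoxB, 4 of 8 HoxC and 6 of 8 HoxD were called lower. In HoxB, Hoxb6, Hoxb7, Hoxb8 and Hoxb9 were tested through mESCs alone, and of these only Hoxb9 was called, a share below the 1132 of 1540. The levels in mESCs were modest, with a median of 5.69 RPM over the 39 genes, and the median in PILECs was 1.47 RPM.

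Among the strongest losses were promoters of HoxC and HoxD. Hoxc12 went from 7.96 to 0.509 RPM (log2 ratio -3.97, -5.24 to -2.84), Hoxd11 from 11.1 to 0.905 RPM, Hoxc13 from 30.7 to 2.94 RPM and Hoxd8 from 19.9 to 2.09 RPM. In HoxB, Hoxb9 alone was called, from 12.8 to 2.26 RPM. Hoxb13, at 4.27 and 4.58 RPM, had the highest ratio of the tested Hox promoters. Over whole clusters, tags went from 195 to 70.3 RPM in HoxA, from 156 to 84.04 in HoxB, from 138 to 60.5 in HoxC and from 147 to 49.1 in HoxD. The log2 ratios of these sums were -1.47, -0.89, -1.19 and -1.58, beside input ratios over the same regions of -0.60, -0.22, -0.42 and -0.71. The PILEC input itself stood at 54.3, 106, 55.1 and 51.3 RPM over these regions, so that the H3K4me3 sums of HoxB and HoxD in PILECs were below the input and that of HoxC was close to it. In wt cells Hoxc12 went from 6.99 to 0.693 RPM and Hoxc13 from 29.2 to 3.14 RPM, changes not called different from the menin-null ones. Those of Hoxd11 and Hoxd8 were called different. Of 37 Hox promoters tested in wt cells 8 were called lower and 4 higher, beside 9.39% and 2.17% of all.

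Genes of the chromatin machinery itself were called lower at about the share of all promoters (15.5%). Of 16 tested promoters of menin and H3K4 methyltransferase complex genes 3 were called lower (18.8%) and 0 higher, with a median log2 ratio of -0.44, beside -0.35 for all promoters. Psip1, which encodes the menin partner LEDGF, went from 68.5 to 22.0 RPM. Jund, whose product binds menin, went from 131 to 55.1 RPM and lay on chromosome 8, and its call was lost under 7 of the alternatives. With division by the input ratio none of the 16 was called lower. Of 17 tested Polycomb promoters 2 were called lower (11.8%), Cbx7 from 60.0 to 11.3 RPM and Bmi1 from 44.4 to 11.9 RPM. The medians of both lists came to -0.08 and 0.00 with scaling by tags near TSSs.

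Of 10 tested promoters of DNA methylation genes 4 were called lower, where 15.5% of all promoters were, and 0 higher. Dnmt3l and Dnmt3a, which encode parts of the de novo methylation machinery, went from 15.6 to 1.19 RPM and from 71.7 to 15.04 RPM. Dnmt3b and Uhrf1, named after their values were seen, were called lower from 67.7 to 22.6 RPM and from 75.1 to 30.6 RPM. Tet1 and Tet3, which encode enzymes that oxidize methylcytosine, stood at 3.70 and 11.8 RPM and at 18.2 and 40.5 RPM and were not called. With scaling by tags near TSSs 2 of the 10 were called lower and 2 higher, and with division by the input ratio 1 lower and 2 higher.

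The CDK inhibitor genes, several of which are known targets of menin in endocrine cells, were not called at any of 6 tested promoters, where 2.09% of all were called higher and 15.5% lower, a count too small to set the list apart. Cdkn1b, which encodes p27, stood at 52.6 RPM in mESCs and 57.3 RPM in PILECs (log2 ratio 0.12, -0.10 to 0.36). Cdkn2c, which encodes p18, stood at 27.9 and 25.8 RPM (log2 ratio -0.11, -0.43 to 0.22), and Cdkn1c, which encodes p57, at 18.5 and 7.86 RPM (log2 ratio -1.23, -1.67 to -0.79). Thus the intervals of Cdkn1b and Cdkn2c lay within 2-fold of equal, while that of Cdkn1c did not. As reference lists, 1 of 15 tested housekeeping promoters and 4 of 76 tested ribosomal protein promoters were called lower (6.67% and 5.26%, beside 15.5% of all), with medians of -0.27 and -0.43. With scaling by tags near TSSs none was called lower and 1 housekeeping promoter higher, and with division by the input ratio none was called lower and 2 housekeeping and 1 ribosomal protein promoters higher. Actb, the β-actin gene named after its values were seen, stood at 85.0 and 87.3 RPM.

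The changes were also compared with those in wt cells, which share no sample with the menin-null comparison. In wt cells 338 of 15612 tested promoters were called higher (2.17%) and 1466 lower (9.39%). Of the promoters called higher in menin-null cells 211 (65.1% of these, 62.4% of those higher in wt) were also called higher in wt, and of those called lower 1181 (49.3% and 80.6%). None was called in opposite directions. Across the 15240 promoters tested in both, Pearson's r of the log2 ratios was 0.908 and Spearman's rho 0.886, as a description across genes, which are not independent replicates. The wt median log2 ratio was -0.02, so that, with scaling by total tags, the menin-null ratios were shifted down as a whole. The wt H3K4me3 libraries held 2432377 tags in mESCs and 18773635 in PILECs. Of these, 43.5% and 42.7% lay within 1 kb of a TSS, beside 51.4% and 40.1% in menin-null cells. The part of depth and of this share in the shift and in the counts of losses was not tested.

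The menin-null change itself differed from the wt change, with the whole 95% interval of the difference beyond 2-fold, at 57 promoters of 15816 tested. Of these, 11 (0.0695%) were higher and 46 (0.291%) were lower, and 14 of the 46 were Hox genes. The balance turned with scaling, to 34 higher and 16 lower with tags near TSSs and 31 higher and 16 lower with centring on promoters marked in both libraries. At 13 of the 14 Hox genes the levels of the genotypes lay further apart in PILECs than in mESCs, by the size of their log2 ratio, the exception being Hoxc6 (4.55 and 0.452 RPM beside 0.411 and 1.65 RPM in wt). Hoxb8 stood at 3.70 RPM in menin-null mESCs and 0.905 RPM in menin-null PILECs, whereas in wt cells it went from 0.822 to 9.75 RPM (difference in log2 ratio -5.29, -7.37 to -3.21). Hoxb7, whose window overlaps that of Hoxb8, stood at 5.12 and 2.04 RPM beside 1.64 and 14.3 RPM in wt. Hoxd3 stood at 5.69 and 2.26 RPM beside 2.47 and 10.5 RPM, and Hoxa9 at 5.97 and 0.905 RPM beside 2.47 and 5.75 RPM. In the wt mESC library 1 tag was 0.411 RPM and 0 tags allowed up to 1.23 RPM, so the wt mESC levels of these genes rested on few tags. The menin-null mESC input stood at 2.14 RPM at Hoxb8, 1.87 at Hoxb7, 1.87 at Hoxd3 and 1.07 at Hoxa9.

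Hence the HoxB cluster as a whole had 156 and 84.04 RPM in menin-null cells and 165 and 345 RPM in wt cells. HoxA had 195 and 70.3 RPM beside 186 and 174 RPM, HoxC 138 and 60.5 RPM beside 141 and 136 RPM, and HoxD 147 and 49.1 RPM beside 148 and 110 RPM. The mESC levels of each cluster lay close together in the genotypes, and the PILEC levels were lower in the menin-null line. The number of Hox genes called different was 9 of 16 lower promoters with scaling by tags near TSSs, 8 of 35 with thinning to the shallower library and 6 of 108 with a window of 500 bp, in which Hoxb8 was not called. Hoxa9, Hoxb7 and Hoxd3 were called under each of the settings tried for this difference.

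Of the imprinted genes Meg3 and Mest were called different from wt, and their levels lay further apart in mESCs than in PILECs. Meg3 stood at 26.3 RPM in wt mESCs and 40.0 RPM in wt PILECs, and so menin-null mESCs, at 1.99 RPM, were the only 1 of 4 libraries without a level above 3 RPM (difference in log2 ratio 3.59, 2.48 to 4.69). Mest stood at 23.8 and 34.1 RPM in wt cells (difference 3.20, 2.15 to 4.25). For Plagl1 the wt levels were 12.7 and 33.9 RPM and for Airn 6.58 and 20.7 RPM, and their differences of 2.15 and 2.76 were not called, but were with scaling by tags near TSSs. H19 stood at 2.06 and 5.49 RPM in wt cells. Among the losses described above, Pou5f1 and Fgf4 were not called different, with 55.9 and 3.68 RPM and 62.1 and 2.93 RPM in wt cells, whereas Tcl1 and Trim2 were, with differences in log2 ratio of -2.63 and -2.22, calls that were lost with scaling by tags near TSSs.

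**Figure D4:**
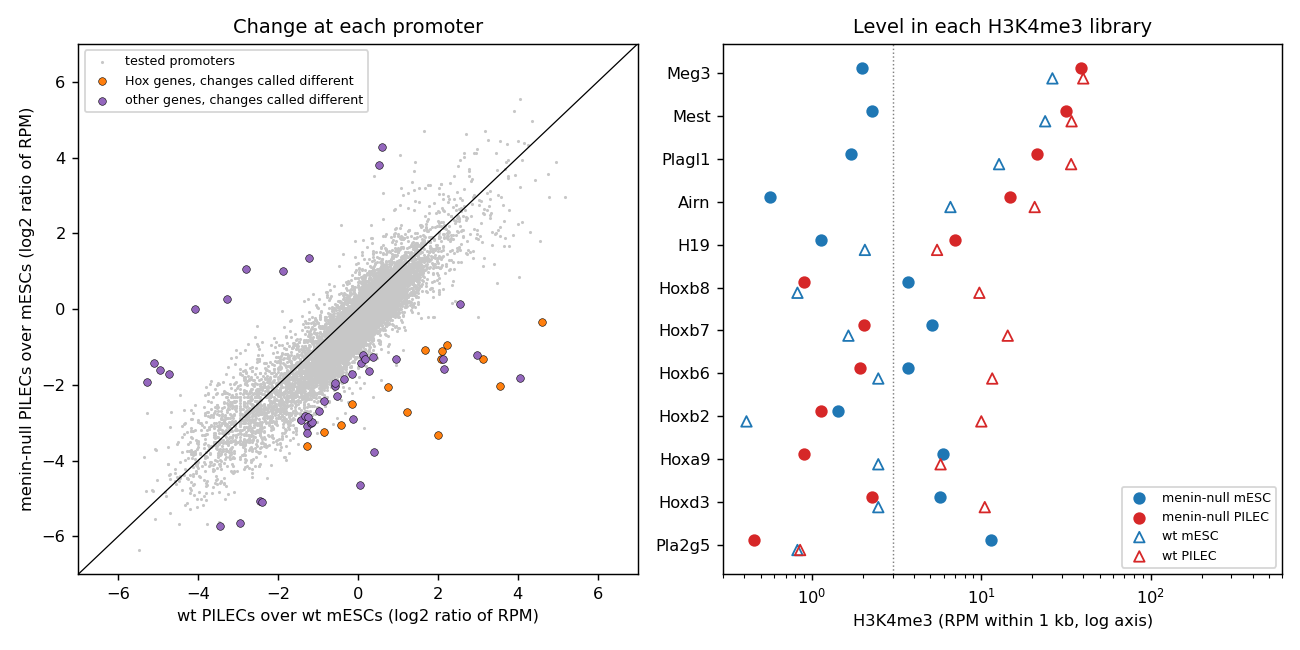
Left, log2 ratio of H3K4me3 (PILECs over mESCs) at each promoter in wt cells (x axis) and menin-null cells (y axis), with promoters called different colored where both ratios are finite and the line marking equal change. Right, the level of 12 promoters in each of the 4 H3K4me3 libraries (RPM, log scale), where Meg3 and Mest stand apart in menin-null mESCs and Hoxb8, Hoxb7 and Hoxd3 in wt PILECs, and the dotted line marks 3 RPM.

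Calls differed between classes of CpG content, defined by the ratio of observed to expected CpG over the promoter (at least 0.6 with at least 50% GC for CpG-rich, under 0.4 for CpG-poor). CpG-rich promoters made up 72.8% of the tested promoters but 29.3% of those called higher and 56.7% of those called lower. Of 11262 CpG-rich promoters 0.843% were called higher and 12.1% lower. Of 3101 intermediate promoters the shares were 4.39% and 20.1%, and of 1105 CpG-poor promoters 8.42% and 37.7%. The tested CpG-poor promoters, 1105 of 10624, lay near the filter of 3 RPM, with medians of 5.97 RPM in mESCs and 3.05 RPM in PILECs. Those of the CpG-rich promoters were 41.5 and 32.6 RPM. The part of level and filter in these shares was not tested. In the 250 bases before the TSS the median number of CpGs was 9 at promoters called higher, 15 at those called lower and 19 at those called neither. Celf3, with 6 CpGs in the sequence above, and Pou5f1, with 7, were thus both at the CpG-poor end.

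Base composition also moved with the ratios of the input libraries, and so these values are given beside the promoter counts. Across 12537 bins of 200 kb the log2 ratio of the menin-null inputs had a Pearson's r of -0.855 and a Spearman's rho of -0.858 with GC content, as a description of bins of the same libraries. In quintiles of tested promoters from low to high GC content, the median H3K4me3 log2 ratio went from -0.09 through -0.20, -0.30 and -0.39 to -0.69, and the log2 ratio of summed input tags from -0.08 through -0.86, -1.03 and -1.18 to -1.46. The share called higher went from 5.47% in the lowest quintile to 0.162% in the highest. The share called lower was 15.1%, 13.2%, 15.3%, 13.8% and 20.1% from the lowest quintile to the highest. With ratios centred within quintiles of GC content, a setting chosen after seeing the data, 548 promoters were called higher and 1518 lower (26.5% gains). The part of base composition in the calls was not tested further.

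Chromosomes 8, 11 and X stood apart. On chromosome 8 the median H3K4me3 log2 ratio was -0.83 and the input ratio -0.40, and of 823 tested promoters 230 were called lower (27.9%, beside 15.5% of all), among them Triml2, and 12 higher (1.46%, beside 2.09%). On chromosome 11, which carries HoxB, the values were -0.02 and 0.17, and on X, which carries Dcx, 0.05 and 0.27. Over the autosomes the medians were -0.35 and 0.02. In wt cells the H3K4me3 medians of chromosomes 8, 11 and X were -0.29, 0.32 and 0.30, and the input ratios -0.23, 0.18 and 0.31. Without these 3 chromosomes, also a setting chosen after seeing the data, 251 promoters were called higher and 1973 lower of 12833 tested.

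**Figure D5:**
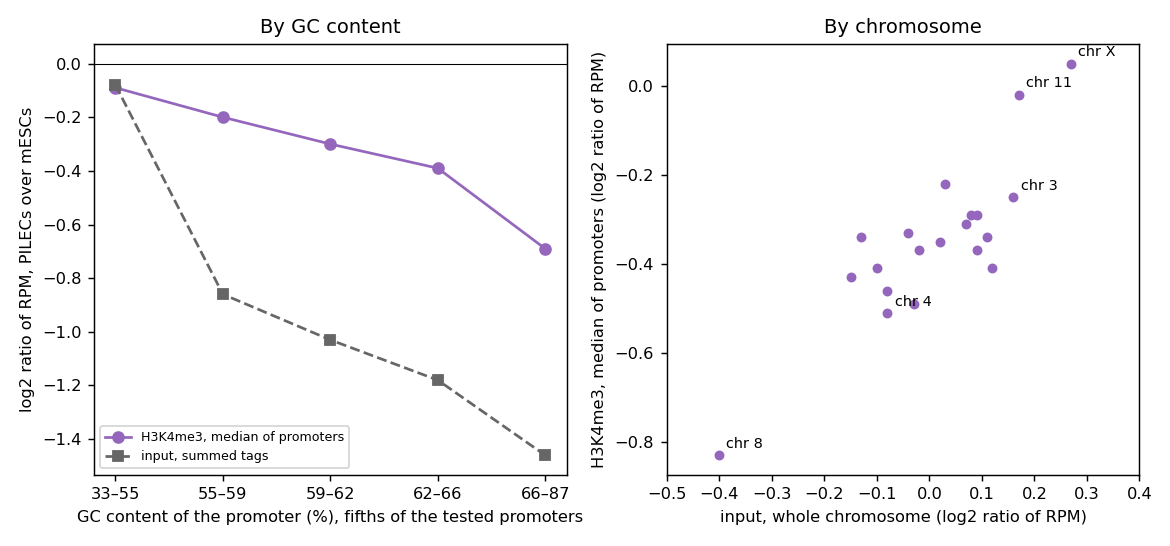
Left, median H3K4me3 log2 ratio of promoters and log2 ratio of summed input tags (menin-null PILECs over mESCs, y axis) in quintiles of promoter GC content (x axis), both falling from left to right. Right, median H3K4me3 log2 ratio of each chromosome (y axis) against its input log2 ratio (x axis), where chromosome 8 lies lowest on both.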

How the data were processed

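H3K4me3 ChIP-seq and input libraries, 1 of each per cell type and genotype, were deposited by the authors as 1 line per mapped tag. By the methods, a tag had 36 bases, 1 possible placement and a limit of 2 mismatches. The build, mm9, is named in the submitters' processing notes, and the aligner is not given in the sources used here. The score column that the authors deposited with each tag (whole numbers from 4 to 119) is of unstated meaning and was not used. Of the tags, 1.04% to 1.81% in each library had more than 2 mismatches and were kept.

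Each tag was shifted by 125 bp, so that it stood for the centre of a 250-bp fragment, and counted within 1 kb of 75434 TSSs of 26212 genes on NCBIM37, the same assembly as mm9. For each of 26048 symbols the TSS with the highest sum of RPM over the menin-null H3K4me3 libraries was kept. Ratios of RPM carry an exact (Clopper-Pearson) 95% interval of the tags, conditional on their sum. The difference between the menin-null and wt log2 ratios carries a Wald 95% interval with 0.5 tags added to each count. Folds against 0 tags were computed against 3 tags, without the counting error of the PILEC tags. The lower limits of their 95% intervals therefore lie below them. Intervals and limits cover counting error only, and 4.17% of the mESC and 11.4% of the PILEC menin-null H3K4me3 tags shared a position and strand with another. Groups came from the labels, and no test over replicates was possible with 1 library per condition. Genes were named by fixed rules: the 12 promoters of protein-coding genes called in each direction with the bound nearest 0 farthest from 0 (no clone or provisional symbols, 1 gene per overlapping window), up to 4 extremes of each list, genes the study names, and the 6 promoters in each direction that differed most from wt by the bound nearest 0. The members and lists were chosen with earlier results of these data known. Alternatives covered scaling, duplicates, depth, input, window, tag position, TSS, filter and call rule. A limit of 2 mismatches, the omission of chromosomes 8, 11 and X and centring by GC content were added after seeing the data. The counting steps were tested on simulated data. Python 3.11.15, numpy 2.4.6, pandas 2.3.3, scipy 1.17.1 and matplotlib 3.10.9 were used. Sequences were read from the NCBIM37 genome.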

Additional observations from a re-analysis of the deposited data

Results flagged for a closer look

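At 12 promoters the change on differentiation in menin-null cells stood furthest from the change in wt cells by the interval bound nearest 0, each with the whole counting interval of the difference beyond 2-fold, and with 1 library per condition. The difference in log2 ratio (menin-null minus wt) was 3.59 at Meg3 and 3.20 at Mest, for which menin-null mESCs were the library with the low level.

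The difference was 3.83 at Gm16380, 3.22 at Sap25, 2.95 at Rgs14, which encodes a regulator of G-protein signaling, and 2.55 at Pcdhb1, a clustered protocadherin. At Sap25 the level went from 3.13 to 1.02 RPM in menin-null cells and from 9.87 to 0.320 RPM in wt cells, and at Rgs14 from 4.27 to 1.301 RPM and from 12.7 to 0.479 RPM. Gm16380 was below 1 RPM in both menin-null libraries and went from 4.52 to 0.266 RPM in wt cells. Pcdhb1 went from 3.41 to 8.65 RPM in menin-null cells and from 6.99 to 2.98 RPM in wt cells.

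In the other direction the difference was -5.29 at Hoxb8, -4.31 at Hoxb7 and -3.82 at Hoxa9. It was -5.32 at 5730596B20Rik and -4.05 at 2700086A05Rik, transcripts that start within the HoxA cluster. The former stood at 1.99 and 0.566 RPM in menin-null cells and 0.411 and 6.82 RPM in wt cells, and the latter at 7.68 and 0.566 RPM and 3.29 and 4.37 RPM. At 0.411 RPM per tag, the wt mESC levels of both transcripts and of Hoxb8, Hoxb7 and Hoxa9 rested on few tags. Pla2g5, a secreted phospholipase gene, had a difference of -4.36. It was marked in menin-null mESCs alone, at 11.4 RPM, beside 0.452 RPM in menin-null PILECs and 0.822 and 0.852 RPM in wt mESCs and PILECs. With each PILEC H3K4me3 library thinned to the tag total of the mESC library of its genotype, Gm16380, Sap25, Rgs14, Pcdhb1 and Pla2g5 were no longer called different. The cause of these differences was not tested.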

How the results depend on the processing

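With 1 library per condition no replicate could be left out, and no paired analysis was possible because no condition had a second library. The counts of promoters called (324 higher, 2397 lower), the median log2 ratio (-0.35) and the count that differed from wt (57) moved as follows. Scaling by tags within 1 kb of any TSS gave 639, 1539 and a median of 0.01. Centring on promoters marked in both libraries gave 538 higher and a median of -0.07. Keeping 1 tag per position and strand gave a median of -0.49, subtraction of input tags gave 491 higher, and division by the input ratio gave 952, 1126 and a median of 0.14. A window of 500 bp gave 118 that differed from wt, and no filter on low values a median of -0.17. An interval beyond 3-fold gave 126 and 1185, a 2-fold change with an interval leaving out 0 gave 835 and 3618, and a 2-fold change with 0.25 RPM added gave 815 and 3563. Centring within quintiles of GC content, chosen after seeing the data, gave 548, 1518 and a median of 0.00. Limiting tags to 2 mismatches, likewise added, gave 324 and 2387. Promoters higher and lower relative to wt (11 and 46) came to 34 and 16, 31 and 16, 10 and 35, 4 and 35, 10 and 108, 12 and 37 and 10 and 44 under scaling, centring, 1 tag per position, thinning, windows of 500 bp and 2 kb and the mismatch limit. The totals marked in each library stayed within 1.5 times.

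Of 87 named genes that were called, 46 kept the call under all 12 alternatives run for single genes. The ratio turned at 6 genes when the annotated 5′ end of the gene replaced the TSS with the highest summed RPM, which is by construction another promoter. The log2 ratio there was 0.04 at Hoxa10, 1.26 at Hoxd4, 0.06 at Jund, 0.06 at Klhl35, -0.33 at Mest and 0.81 at Trim2. Where an alternative left a gene with 0 tags in either library, no log2 ratio could be given for it. Of 61 named genes not called, 14 gained a call under an alternative. The mESC depth, at 0.284 RPM per tag, limits folds at promoters under 3 RPM there.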

Other observations

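In the menin-null inputs, runs of 200-kb bins stood apart from the rest of the genome. Runs of 5 bins or more, in which the running median over 5 bins was higher in PILECs than the autosome median by over 0.5 on the log2 scale, numbered 173 and spanned 384 Mb, and held 178 tested promoters, of which 45 were called higher (25.3%, beside 2.09% of all tested promoters) and 3 lower. Runs lower by as much numbered 82 and spanned 178 Mb, 15 of them on chromosome 8, and held 3813 tested promoters, of which 37 were called higher and 832 lower (21.8%, beside 15.5%). In the quintile of bins with the lowest GC content the input log2 ratio was 0.57 in menin-null and 0.61 in wt cells, and in the quintile with the highest -0.45 and -0.48. The part of these differences in the promoter calls was not tested.

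The 1087 olfactory receptor genes, whose transcripts were not examined here, were used for the level of promoters without the mark. The median level over the family, of which 6 promoters reached 3 RPM in either library, was 0.284 RPM in mESCs and 0.396 RPM in PILECs, beside 0.284 and 0.452 RPM for Gcg. Of the 6 promoters that reached 3 RPM, 4 were called lower (66.7%, beside 15.5% of all tested promoters) and 0 higher. All 6 were lower in PILECs (log2 ratios from -3.46 to -1.31) and so passed the filter in mESCs. The count of 1132 called lower among the 1540 tested promoters under 3 RPM in PILECs is therefore a closer comparison than the 15.5%, and these 4 are no excess over it. Mir196a-2 and Mir10a, microRNA genes of the Hox clusters named after their values were seen, were among the promoters called lower relative to wt, from few tags in mESCs. Mir196a-2 stood at 1.71 and 0.735 RPM in menin-null cells and 0.822 and 6.45 RPM in wt cells, and Mir10a, whose call was lost with scaling by tags near TSSs, at 1.71 and 0.566 RPM and 0.822 and 3.68 RPM.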
